A study of Mus musculus with 12 samples.

Results

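Schwann cells are the glia of peripheral nerves, and 8 genes of this cell type and its myelin were followed in the inferior vena cava (IVC): Sox10, Mbp, Pmp22, S100b, Gfap, Cdh19, Ngfr and Erbb3. They were chosen by symbol, to set genes of the glia beside genes of sympathetic neurons in the same samples. All 8 were found among the 55414 genes of the count table. The samples came from 12 wild-type C57BL/6J mice, 10 weeks old, each giving 1 poly(A) RNA library of the IVC on postoperative day 7. In 6 mice a needle puncture through the infrarenal aorta into the IVC had made an arteriovenous fistula (AVF group), and in 6 the same operation was done without the puncture (sham group), 3 females and 3 males each. All 12 mice had isoflurane anesthesia, extended-release buprenorphine and clamping of both vessels. In the AVF group the segment from above the fistula to below the left renal vein was taken.

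Schwann cells ensheath axons, either with a myelin sheath around a single large axon or, as Remak cells, with a simple sleeve around bundles of thin axons. The sympathetic axons that reach vessel walls are thin and mostly lie in Remak bundles. Neuregulin on the axon, read by the ERBB receptors of the glia, keeps Schwann cells alive, and the transcription factor SOX10 holds their identity and is needed for the expression of myelin genes. In RNA of a whole piece of tissue, fewer cells of a type and less RNA per cell cannot be told apart. Where in the dissected piece the neuron and Schwann cell RNA arose was not tested.

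Promoter windows were at hand for 4 of the 8 genes, Pmp22 (4 windows), S100b, Gfap and Ngfr, from RefSeq on GRCm38.p6, an earlier build than the GRCm39 of the counts. The 250 bases before the start are shown for Ngfr, the gene with the largest fall in the AVF group, and for S100b and Gfap, which did not pass the test. Capitals mark CG pairs, the sites of vertebrate DNA methylation.
Ngfr, chr11:95587699-95587948, minus strand: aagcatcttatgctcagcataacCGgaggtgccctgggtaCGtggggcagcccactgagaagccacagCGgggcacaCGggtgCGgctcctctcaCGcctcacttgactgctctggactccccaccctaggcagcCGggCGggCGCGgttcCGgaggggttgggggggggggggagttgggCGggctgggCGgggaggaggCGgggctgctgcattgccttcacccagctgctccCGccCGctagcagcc
S100b, chr10:76253586-76253835, plus strand: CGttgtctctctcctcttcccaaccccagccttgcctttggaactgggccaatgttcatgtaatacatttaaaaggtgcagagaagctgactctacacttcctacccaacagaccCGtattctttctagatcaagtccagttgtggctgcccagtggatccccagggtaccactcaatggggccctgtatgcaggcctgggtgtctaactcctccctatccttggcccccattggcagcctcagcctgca
Gfap, chr11:102897201-102897450, minus strand: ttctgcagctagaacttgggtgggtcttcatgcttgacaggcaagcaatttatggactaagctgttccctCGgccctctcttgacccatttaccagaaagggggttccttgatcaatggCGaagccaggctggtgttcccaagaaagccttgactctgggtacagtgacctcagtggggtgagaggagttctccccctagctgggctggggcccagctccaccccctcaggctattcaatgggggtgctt
These bases held 16 CG pairs in Ngfr and 2 each in S100b and Gfap, where the median of all 32851 windows was 6 and 25.4% of them held at least 16. GC content was 70.4% in Ngfr, 53.6% in S100b and 55.6% in Gfap. Pmp22, which did not pass the test either, held 3, 14, 14 and 27 CG pairs in its 4 windows. Their GC content was 48.8% to 73.6%. Whether CG pairs go with the change in expression was not tested. The SOX letters ACAAAG and ACAATG, searched on both strands of the 300 bases that run to 50 bases after the start, were in none of the 7 windows of the members, and 28.6% of all windows held either. This says only that the letters are not in these windows.

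The libraries held 15177881 to 22717423 counts. In sample #07, a female AVF, 46% of the counts were of ribosomal RNA genes, and in the others 2.39% to 12.6%. Samples #05 and #09, a male and a female AVF, stood apart from the rest by RNA of liver genes, with albumin (Alb) reaching 1850 and 5580 normalized CPM where the other 10 libraries held 0.127 to 2.67. Results that rest on these samples are therefore given with and without them. Levels are in normalized CPM, counts scaled to a common library size after TMM normalization, which sets libraries level over the bulk of their genes. Between libraries of the same operation and sex, counts differed by far more than sampling noise, with a chi-square of 30.1 to 486 per degree of freedom over 12 pairs.

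Each of the 8 genes passed the filter of more than 1 CPM in at least 2 libraries. Per kilobase of merged exons in the sham group, Pmp22 was the highest at 83.7 ± 21.6 (SD, n = 6) normalized CPM. Ngfr followed at 38.9 ± 14 and Cdh19 at 22.4 ± 4.35. S100b at 14.7 ± 4.58 and Mbp at 13.9 ± 3.96 did not differ beyond their spread, and neither did Erbb3 at 5.83 ± 1.75 and Sox10 at 4.29 ± 1.38. Gfap was the lowest at 0.524 ± 0.31. The order was the same in the AVF group, from Pmp22 at 84.8 ± 11.2 to Gfap at 0.541 ± 0.271 (SD, n = 6). There the spreads of neighbours overlapped from Ngfr at 17 ± 7.83 through Cdh19 at 13.9 ± 4.48 and S100b at 12.4 ± 3.98 to Mbp at 8.77 ± 2.24. Merged exons include those of isoforms that a Schwann cell need not make, so these levels are lower bounds on the level per transcript length. The markers of Schwann cells were thus present in every library, with the fewest counts in Gfap, 26 to 153.

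The comparison of the AVF and sham groups gave 2 of the 8 genes with lower expression in the AVF group and 0 with higher expression, at an adjusted p value under 0.05 (edgeR, quasi-likelihood). Of all 15912 tested genes, 5.13% were lower and 8.63% were higher by the same rule, and 13.8% passed in either direction. The genes that passed were Ngfr and Cdh19. DESeq2 called 4 of the 8 lower, where it called 9% of all genes lower, the exact test of edgeR called 3, where it called 5.07%, and both called 0 of the 8 higher. Sox10, Mbp and Erbb3 had negative log2 fold changes with unadjusted p values under 0.05 and adjusted p values above it, while Pmp22, S100b and Gfap had log2 fold changes between -0.25 and 0.03. The unadjusted threshold was met in the lower direction by 5 of the 8 genes and by 15.2% of all tested genes. The median log2 fold change was -0.60 over the 8 genes and -0.01 over all genes. The ranges of the groups overlapped in each of the 8 genes, where 6.06% of all tested genes had groups without overlap and 1.51% had every AVF library below every sham library.

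**Figure D1:**
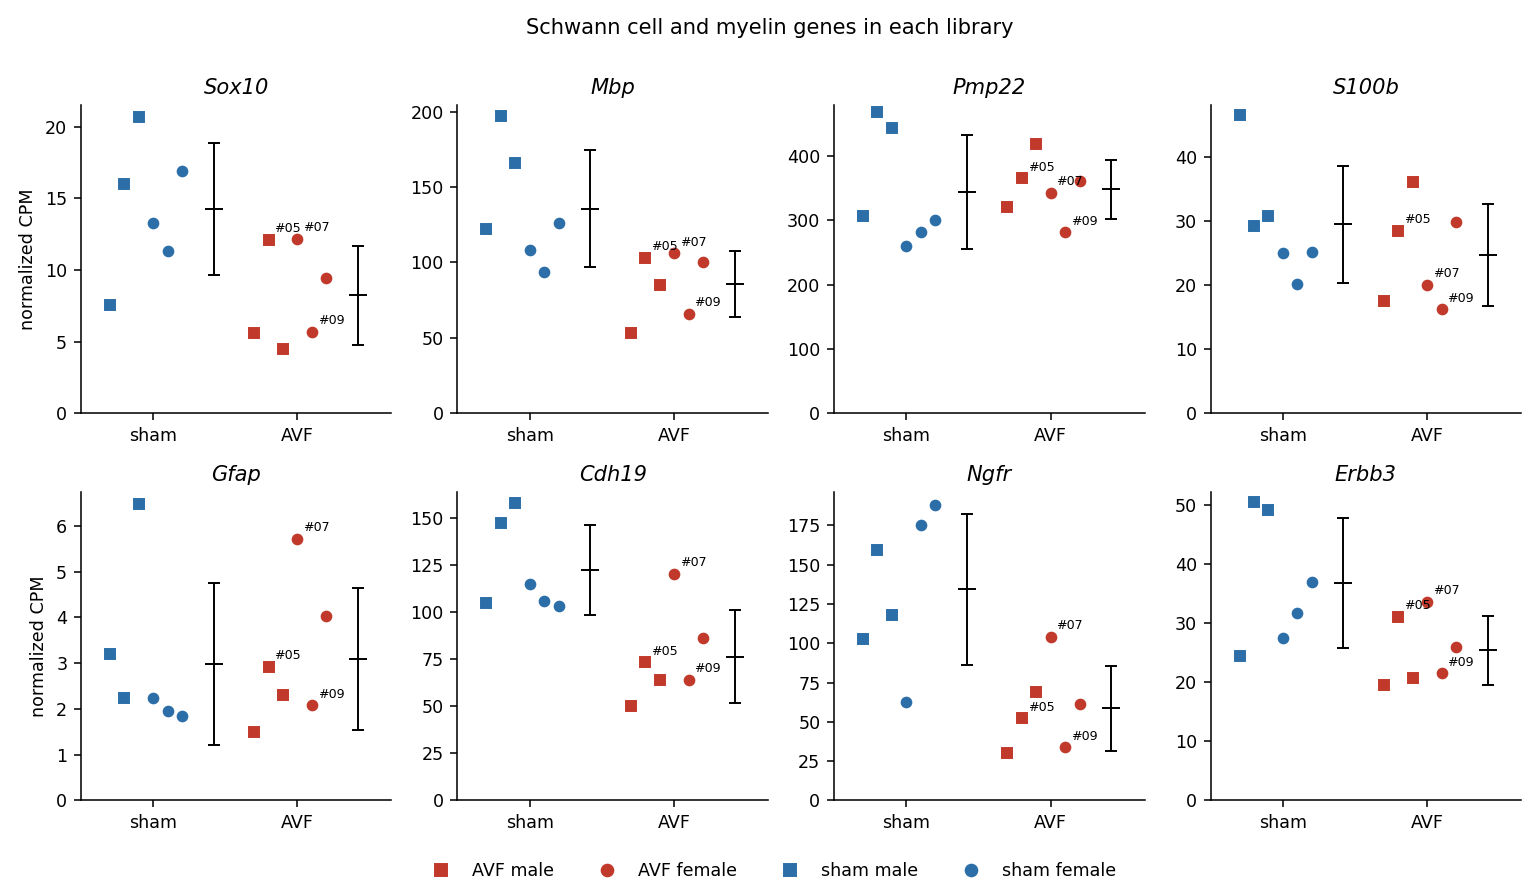
Normalized CPM (vertical axes, from 0) of the 8 genes in each of the 6 sham (blue) and 6 AVF (red) libraries, with squares for males and circles for females, and the mean ± SD in black. Samples #05, #07 and #09 are marked, and the AVF library closest to the sham values of Cdh19 is sample #07 at 120.

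Sox10 (ENSMUSG00000033006, chr15:79039108-79049469, minus strand of GRCm39) encodes the transcription factor of the Schwann cell lineage. Its expression ranged from 4.48 to 12.2 normalized CPM in the AVF group, with a median of 7.56, and from 7.56 to 20.7 in the sham group, with a median of 14.7. All 6 AVF libraries lay below the sham median and 3 lay below the lowest sham library, sample #16. The means were 8.25 ± 3.45 and 14.3 ± 4.60 (SD, n = 6), a log2 fold change of -0.80 (SE 0.29), which did not pass the test (edgeR adjusted p = 0.0849).

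Of the 2 myelin proteins, Mbp came close to the threshold and Pmp22 had a fold change near 0. Mbp (ENSMUSG00000041607) encodes myelin basic protein, which compacts the sheath, and its locus also gives Golli transcripts, which are made outside myelin and are counted with it here. Mbp ranged from 53.1 to 106 normalized CPM in the AVF group (median 92.3) and from 93.5 to 197 in the sham group (median 124). The AVF libraries were again all below the sham median, and the 3 highest of them (samples #05, #07 and #11) reached into the sham range. The log2 fold change was -0.66 (SE 0.21, edgeR adjusted p = 0.0513). Pmp22 (ENSMUSG00000018217, chr11:63019718-63050600, plus strand) encodes a membrane protein of compact myelin that many cells outside nerves also make. It ranged from 281 to 418 normalized CPM in the AVF group (median 352) and from 260 to 468 in the sham group (median 304), so that the AVF values fell within the sham range. Its log2 fold change was 0.02 (SE 0.16, edgeR adjusted p = 0.949).

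S100b and Gfap, both classic markers of glia, gave no difference that the test could call. S100b (ENSMUSG00000033208, chr10:76085090-76097159, plus strand), a calcium-binding protein that adipocytes make as well, ranged from 16.2 to 36.1 normalized CPM in the AVF group (median 24.2) and from 20.1 to 46.5 in the sham group (median 27.1). The groups mixed, with 3 AVF libraries below every sham library and 3 above the sham median. The log2 fold change was -0.25 (SE 0.23, edgeR adjusted p = 0.493). Gfap (ENSMUSG00000020932, chr11:102778159-102791738, minus strand) is the intermediate filament of non-myelinating Schwann cells and of astrocytes. It ranged from 1.49 to 5.71 normalized CPM in the AVF group (median 2.61) and from 1.84 to 6.47 in the sham group (median 2.24), with the highest values in AVF sample #07 and sham sample #18. Its log2 fold change of 0.03 had a standard error of 0.38, the widest of the 8, and ran from -0.19 to 0.40 with single libraries left out.

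Cdh19 (ENSMUSG00000047216, chr1:110815039-110905349, minus strand) encodes a cadherin, a cell adhesion protein known from the Schwann cell lineage. It ranged from 49.9 to 120 normalized CPM in the AVF group (median 68.6) and from 103 to 158 in the sham group (median 111). 5 of the 6 AVF libraries were below every sham library, and the remaining one was sample #07. Expression fell from 122 ± 23.8 to 76.2 ± 24.5 (SD, n = 6), with -0.68 as the log2 fold change (SE 0.19, edgeR adjusted p = 0.0355), or 37.8% lower. Without sample #07 the AVF libraries ended at 86.3 (log2 fold change -0.83, adjusted p = 0.00668, same edgeR test). In that fit 5.97% of all genes were called lower.

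The 2 receptors differed in size of change. Ngfr (ENSMUSG00000000120, chr11:95459638-95478561, minus strand) encodes p75NTR, a receptor of neurotrophins on immature, Remak and injured Schwann cells that sympathetic neurons carry too. It ranged from 30.3 to 104 normalized CPM in the AVF group (median 56.9) and from 62.4 to 188 in the sham group (median 138). 4 AVF libraries were below every sham library, and the lowest sham value, sample #19, stood well under the other 5 sham libraries, which began at 103. Expression fell from 134 ± 48.2 to 58.5 ± 27 (SD, n = 6), with -1.20 as the log2 fold change (SE 0.32, edgeR adjusted p = 0.0292), or 56.5% lower. Ngfr was the only one of the 8 genes to meet the cutoff of a DEG, an adjusted p value under 0.05 with at least a 2-fold change, which 4.77% of all tested genes met.

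Erbb3 (ENSMUSG00000018166, chr10:128403392-128425811, minus strand) encodes the receptor that binds neuregulin. Its AVF libraries ranged from 19.5 to 33.6 normalized CPM (median 23.8) and its sham libraries from 24.5 to 50.6 (median 34.4), and all 6 AVF libraries were below the sham median. The log2 fold change was -0.53 (SE 0.20, edgeR adjusted p = 0.0933). Its partner Erbb2 had a log2 fold change of 0.02 and its ligand Nrg1 (of the identifiers with this symbol, the one with the most counts) one of -0.26, neither of which passed the test.

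**Figure D2:**
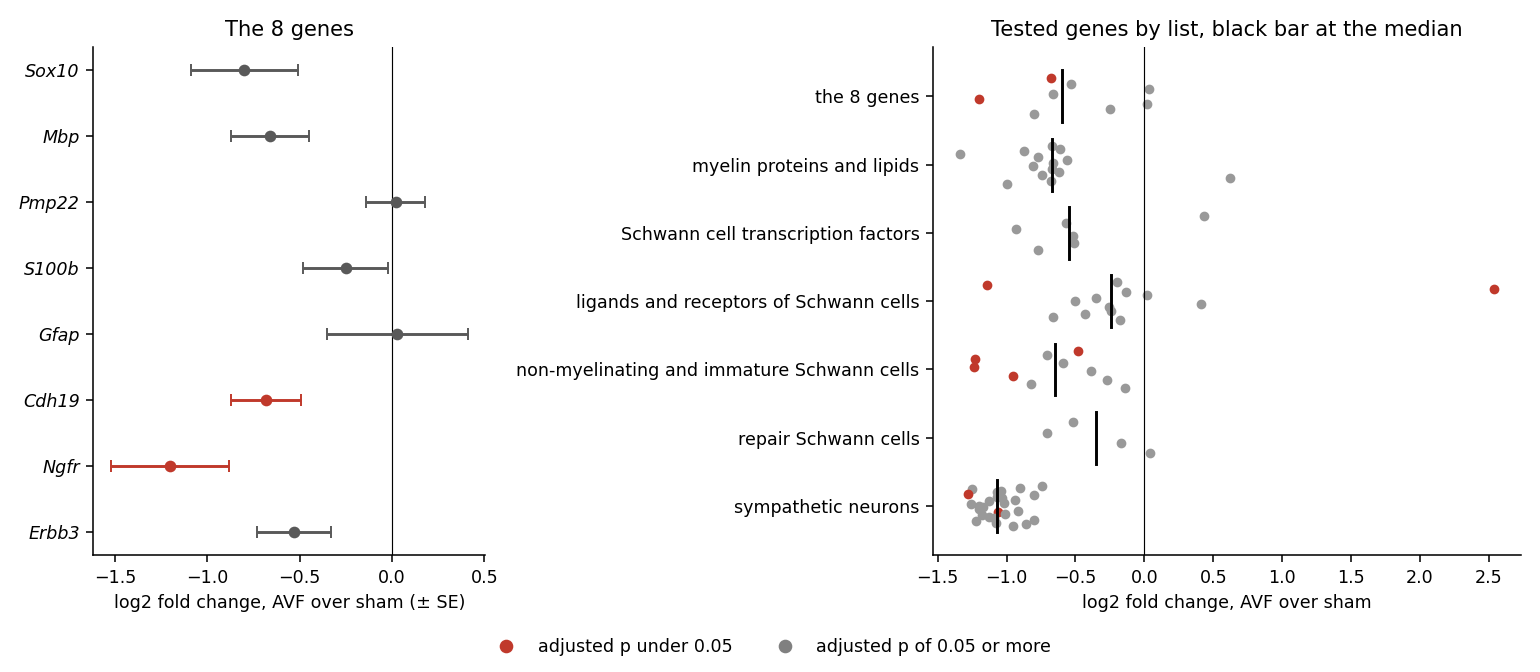
Log2 fold changes of AVF over sham for the 8 genes with standard errors (left), and for each tested gene of the Schwann cell and sympathetic neuron lists (right, a dot per gene, black bar at the median of the list), in red where the adjusted p was under 0.05. Gjb1, which was above the sham libraries mainly in samples #05 and #09, is not drawn. The medians of the 8 genes (-0.60) and of myelin genes (-0.67) lie left of 0, and that of neuron genes (-1.07) lies farther left.

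The calls depended on which libraries were in the fit, while the folds of Ngfr, Cdh19, Mbp and Sox10 were negative in every fit run. Without samples #05 and #09 the folds stayed near those of all 6 AVF libraries, at -1.03 for Ngfr, -0.62 for Cdh19, -0.87 for Sox10, -0.65 for Mbp and -0.56 for Erbb3. None of the 8 genes then passed in edgeR, where 2.05% of all genes were called lower. The adjusted p values were 0.0918 for Ngfr, 0.0964 for Mbp, 0.1 for Cdh19 and 0.109 for Sox10 (edgeR), and 5 of the 8 genes still had an unadjusted p value under 0.05, as did 12.9% of all genes in the lower direction. Over the 24 alternatives in which a fold change was computed, Ngfr passed in 19 and ranged from -1.41 to -1.03, and Cdh19 passed in 18 and ranged from -0.83 to -0.59. Single libraries ended either call. Cdh19 had adjusted p values (edgeR) of 0.0567, 0.067, 0.0606, 0.0547 and 0.0525 without samples #04, #05, #06, #17 and #18, and Ngfr of 0.0583, 0.0601 and 0.058 without samples #05, #22 and #23. Mbp passed in 7, between -0.75 and -0.53, and Sox10 in 1, between -0.95 and -0.67.

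**Figure D3:**
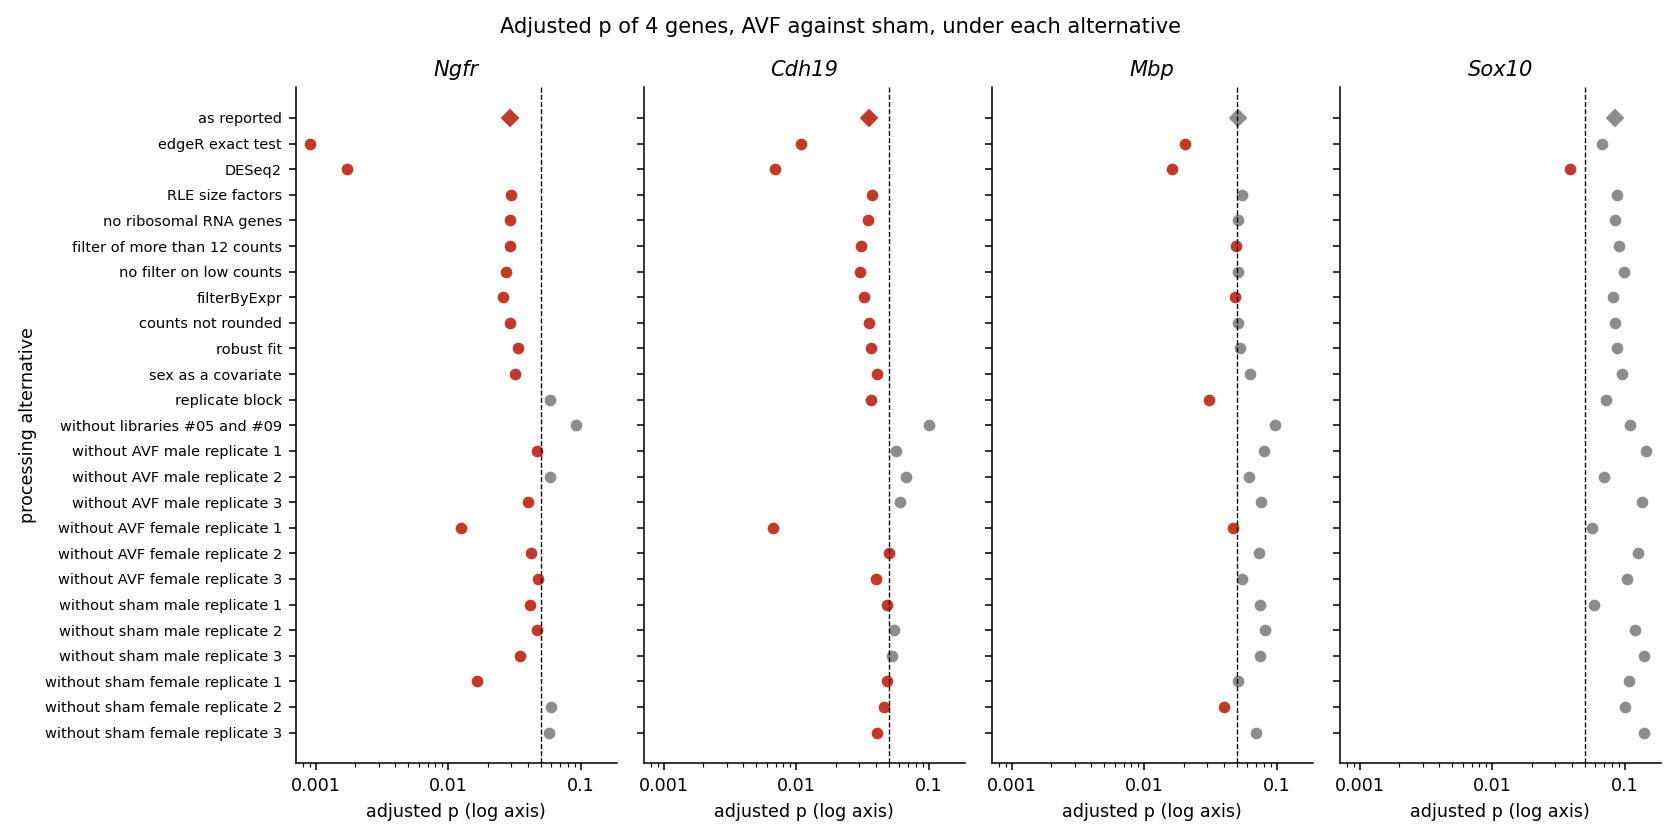
Adjusted p values (horizontal log axes) of Ngfr, Cdh19, Mbp and Sox10 for AVF against sham as reported (diamonds) and under each processing alternative (circles), red where under the dashed line at 0.05. Ngfr and Cdh19 lie close to the line in most fits and beyond it without samples #05 and #09, at 0.0918 and 0.1.

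In the other genes of Schwann cells, 5 of 48 tested genes were called lower and 2 higher in the AVF group by edgeR. Of all genes 5.13% were lower and 8.63% higher. In either direction the shares were 14.6% of these genes and 13.8% of all genes. In sign, 41 of 48 log2 fold changes were negative, against 8256 of the 15912 of all genes. The median was -0.57. Shh and Olig1, of the 50 listed, did not pass the filter. Without samples #05 and #09, 1 of 47 was lower, 0 were higher and the median was -0.47. In that fit 319 of all 15531 genes (2.05%) were lower and 911 were higher.

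The gene with the lowest adjusted p of these lists was Adgrg6, the adhesion receptor that starts myelination and that other cells also make. It ranged from 25.4 to 48.9 normalized CPM in the AVF group and from 60.5 to 120 in the sham group, without overlap. The log2 fold change was -1.14 (SE 0.20, edgeR adjusted p = 0.00359), and without samples #05 and #09 it was the gene of the 47 that passed (log2 fold change -0.99, edgeR adjusted p = 0.0123). Bdnf, a neurotrophin of few counts here, was higher, with 0.8 to 3.47 normalized CPM in the AVF group and 0 to 0.783 in the sham group (edgeR adjusted p = 0.0249, and 0.0594 without samples #05 and #09). The other gene called higher, Gjb1, a gap junction protein of myelin and of hepatocytes, reached 12.8 normalized CPM in sample #05 and 31.7 in sample #09 and was at no more than 0.331 in every sham library, and it did not pass the filter without those 2 samples. The remaining ligands and receptors, 11 of 13, did not pass the quasi-likelihood test. DESeq2 and the exact test of edgeR each called 3 of the 13, where they called 21.4% and 12.6% of all genes in either direction.

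Genes of non-myelinating and immature Schwann cells had negative log2 fold changes in 10 of 10 cases, with a median of -0.65. The test called 4 of them lower, where 5.13% of all genes were lower. Gpr37l1, a receptor of glia, changed by -1.24 on the log2 scale (edgeR adjusted p = 0.0179) and Fabp7, a fatty acid-binding protein of immature glia, by -1.23 (edgeR adjusted p = 0.0497). L1cam, an adhesion molecule of axons and Remak cells, had -0.95, and Art3 had -0.48 (adjusted p = 0.0324 and 0.0213, edgeR). None of these 4 passed without samples #05 and #09.

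Myelin genes were negative in 13 of 15 cases with a median of -0.67, and 0 were called lower by edgeR's test. In either direction 9 of the 15, with Gjb1 among them, had an unadjusted p value under 0.05, as did 5023 of all 15912 genes. DESeq2 and the exact test of edgeR, which called 9% and 5.07% of all genes lower, each called 6 of these 15 lower, and 12 over all 5 Schwann cell lists. Of the 6 transcription factors 5 were negative, with a median of -0.55, and of the 4 tested genes of repair Schwann cells, the state taken after nerve injury, 3 were negative, with a median of -0.35. Neither list had a gene that passed, by edgeR's tests or by DESeq2.

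Markers of other cells moved between the groups as well, and their part in the changes of the Schwann cell genes was not tested. Brown adipocyte genes had negative log2 fold changes in 7 of 7 cases, and Cox7a1, Cidea and Cox8b were lower in the AVF group by edgeR's test. The summed level of all 7 brown adipocyte genes ran from 49.2 to 336 normalized CPM in the AVF group and from 119 to 1820 in the sham group. White adipocyte, smooth muscle, endothelial and lymphocyte genes had 0 calls in 6, 5, 5 and 5 genes by edgeR, with 0, 0, 0 and 1 gene at an unadjusted p value under 0.05, and DESeq2 called 1 lymphocyte gene and 0 of the others. Fibroblast genes were higher in 3 of 5 cases (Lum, Pi16 and Dpt), and macrophage genes in 3 of 4 (Adgre1, Csf1r and Cd68). Of all tested genes 5.13% were lower and 8.63% were higher by edgeR's test. Without samples #05 and #09 these macrophage genes, Lum, Pi16, Cox7a1 and Cox8b passed, and Dpt and Cidea did not (adjusted p = 0.141 and 0.0517, edgeR). Hepatocyte genes were higher in 5 of 5 cases, with a sum of 6350 normalized CPM in sample #09 and of at most 2.88 in any sham library, and without samples #05 and #09 only 1 of the 5 passed the filter and it did not pass the test.

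Melanocytes, the other cells of the neural crest that use SOX10, had markers near the limit of detection. The 5 markers summed to 1.09 to 3.23 normalized CPM in the AVF group and 1.42 to 3.68 in the sham group, and neither of the 2 that were tested passed. Of the 4 adrenal genes, 2 were at or under 3 counts in every library, and Cyp11b1 was tested and higher (log2 fold change 1.61, adjusted p = 0.0417, edgeR), but not without samples #05 and #09 (1.37, adjusted p = 0.126, edgeR). Epithelial genes had 0 of 3 passing by edgeR's quasi-likelihood test, with 2 at an unadjusted p value under 0.05 and 1 higher by DESeq2.

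Set beside the glia, the sympathetic neurons of the same libraries had a median further from 0. All 27 neuron genes had negative log2 fold changes, from -1.28 to -0.74 with a median of -1.07, where the median of the 8 Schwann cell genes was -0.60, with Ngfr at -1.20 and Sox10 at -0.80 inside the range of the neuron genes. In edgeR 2 of the 27 passed, Ret and Elavl4, a share of 7.41% where 5.13% of all genes were lower. At an unadjusted p value under 0.05 there were 21 of the 27, where 15.2% of all genes met this in the lower direction. The number of neuron genes called was 19 by DESeq2 (where 9% of all genes were lower) and 18 by the exact test of edgeR (5.07%). It was 18 without sample #07 (5.97%) and 17 without sample #19 (5.18%). Without samples #05 and #09 Ret alone of the 27 passed (edgeR adjusted p = 0.0414), where 2.05% of all genes were lower, and the median was -0.98. The difference between the neuron and Schwann cell lists was not tested. Th, the enzyme that starts noradrenaline synthesis, ranged from 9.31 to 44.8 normalized CPM in the AVF group (median 25.1) and from 17.2 to 77 in the sham group (median 50.9). Its log2 fold change was -1.08 (SE 0.39, edgeR adjusted p = 0.0821). The summed neuron genes were lowest in samples #04 of the AVF group (412) and #19 of the sham group (1000), and highest in samples #07 (2390) and #23 (3890).

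On the scale of log2(normalized CPM + 1) the ratio of Ngfr to Th was nearly the same in both groups, 1.28 ± 0.30 in AVF and 1.41 ± 0.25 in sham (SD, n = 6), with ranges of 0.79 to 1.60 and 1.08 to 1.80. For the other 7 genes the mean ratio to Th was higher in the AVF group, by the least in Sox10 (-1.37 ± 0.54 and -1.70 ± 0.87) and by more in Pmp22 (3.94 ± 0.72 and 2.81 ± 0.75) and Gfap (-2.54 ± 0.39 and -3.67 ± 0.98). In all 8 genes the ranges of the ratio overlapped between the groups, and the ratios were not tested.

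Across libraries of a group, Ngfr varied with Th. Pearson's r of log2(normalized CPM + 1) was 0.94 in the AVF group (exact permutation test, p = 0.0125, adjusted p = 0.0444 over 16 relations, n = 6) and 0.96 in the sham group (exact permutation test, p = 0.00417, adjusted p = 0.0333, n = 6). Spearman's rho was 0.77 (exact permutation test, p = 0.103, adjusted p = 0.206) and 0.94 (exact permutation test, p = 0.0167, adjusted p = 0.0667). Without the 2 libraries farthest from the median of Th, r was 0.72 in AVF and 0.84 in sham, over 4 libraries. With single libraries left out of the sham group, r was 0.89 to 0.99.

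In the AVF group Mbp, Cdh19 and Gfap also followed Th, whereas in the sham group they did not pass the test. For Mbp, r was 0.97 (exact permutation test, p = 0.00139, the smallest that r over 6 libraries allows, adjusted p = 0.0222) and rho 1.0 (exact permutation test, p = 0.00278, adjusted p = 0.0444), and in sham r was 0.11 (exact permutation test, p = 0.846, adjusted p = 0.904) and rho 0.03. For Cdh19, r was 0.89 in AVF (exact permutation test, p = 0.0139, adjusted p = 0.0444) with a rho of 0.89 (adjusted p = 0.107, exact permutation test), and -0.15 in sham with a rho of -0.60 (exact permutation test, p = 0.242). For Gfap, r was 0.91 in AVF (exact permutation test, p = 0.0125, adjusted p = 0.0444) with a rho of 0.94 (adjusted p = 0.0667, exact permutation test), and -0.16 in sham with a rho of -0.83 (exact permutation test, p = 0.0583), where r was -0.84 without sample #19. Without the 2 libraries farthest from the median of Th, r in AVF was 0.79 for Mbp, 0.93 for Cdh19 and 0.88 for Gfap. Whether r differed between the groups was not tested.

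The other relations with Th did not pass. The 7 in the sham group had p values of 0.617 to 0.931 for r (exact permutation test, adjusted p of 0.904 to 0.931) and of 0.0583 to 1.0 for rho, with r at -0.85 to -0.24 without the 2 libraries farthest from the median of Th. Erbb3 had an r of 0.87 in AVF (exact permutation test, adjusted p = 0.0815, n = 6) and 0.31 in sham, Sox10 one of 0.74 (exact permutation test, adjusted p = 0.263, n = 6) and 0.04, Pmp22 0.54 and 0.23, and S100b 0.50 and -0.08. In the AVF group rho was 0.94, 0.83, 0.43 and 0.37 for these 4 genes, with exact permutation p values of 0.0167, 0.0583, 0.419 and 0.497. Without the 2 libraries r was 0.87, 0.74, -0.83 and -1.0. In all, 5 of 16 relations had an adjusted p value under 0.05. With 5 libraries the smallest p that r can reach is 0.00833, so few relations can pass over 16 once a library is left out. The r values themselves stayed high in AVF with single libraries left out, at 0.95 to 0.99 for Mbp, 0.90 to 0.98 for Ngfr, 0.86 to 0.95 for Gfap and 0.82 to 0.93 for Cdh19.

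**Figure D4:**
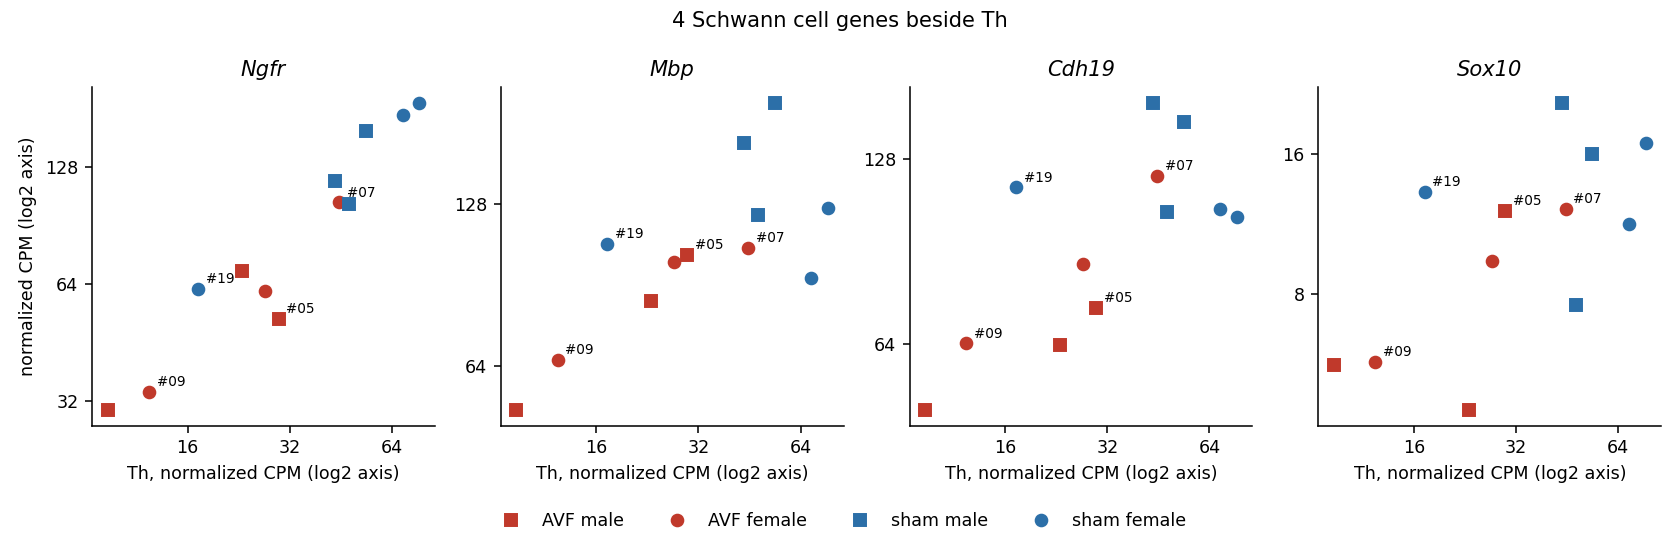
Normalized CPM of Ngfr, Mbp, Cdh19 and Sox10 (vertical) against Th (horizontal), both on log2 axes, for the 6 AVF (red) and 6 sham (blue) libraries, squares for males and circles for females. In Ngfr both groups lie along a common line with sham sample #19 (Th at 17.2) among the AVF libraries, while in Cdh19 sample #19 lies with the other sham libraries at 115.

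Among themselves the 8 genes fell into unlike patterns. Likeness was measured as Pearson's r of log2(normalized CPM + 1) over the 12 libraries after the mean of each group was taken out, and is given as a description, since all genes of a library share its depth and its piece of tissue. Over the 28 pairs the median r was 0.53. Sox10 was most like Erbb3 (r = 0.87, rho = 0.80), then Cdh19 (0.72, 0.70) and Mbp (0.65, 0.66). Cdh19 was like Gfap (0.83, 0.81) and Mbp (0.81, 0.76), and Mbp was like Erbb3 (0.81, 0.79) and Pmp22 (0.77, 0.77).

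Ngfr and S100b stood outside these. The r of Ngfr was 0.39 with Sox10 and at most 0.56 with any of the other 7, but 0.95 with Th, 0.93 with Dbh, the enzyme that makes noradrenaline, and 0.96 with Slc6a2, the noradrenaline transporter. S100b had an r of -0.15 with Sox10 and at most 0.48 with any member.

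**Figure D5:**
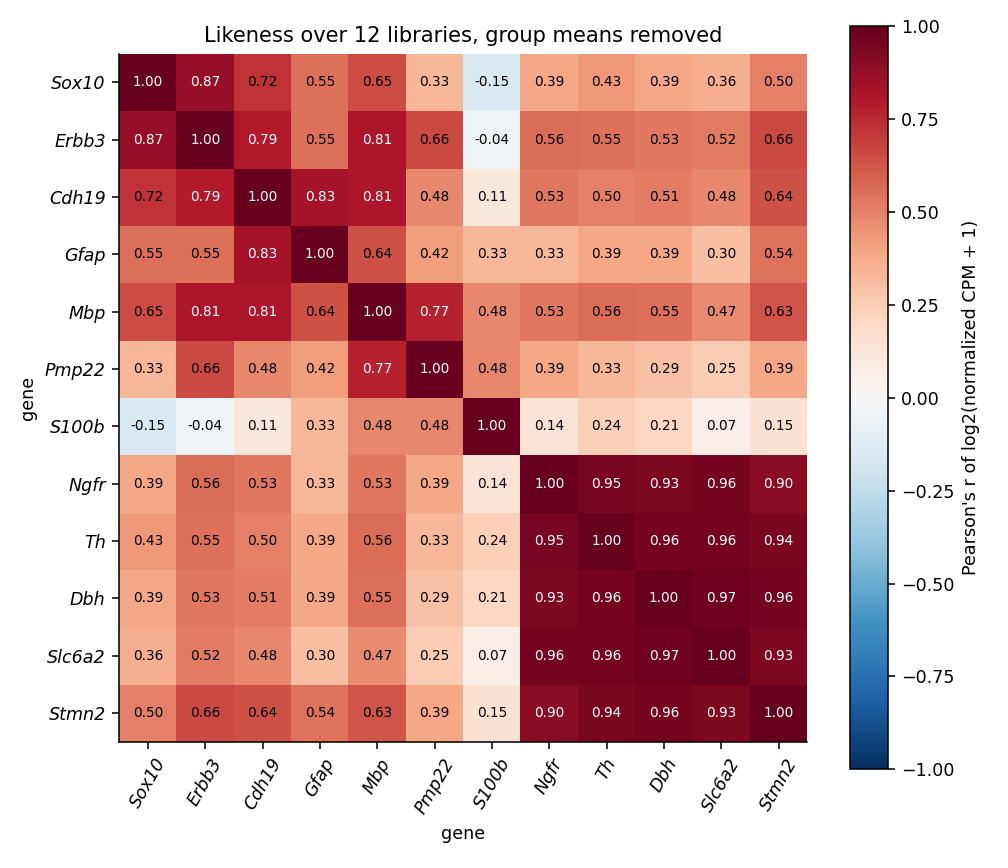
Pearson's r of log2(normalized CPM + 1) between the 8 genes and 4 sympathetic neuron genes over 12 libraries, after removal of the mean of each group (blue for -1, red for 1, values in the cells). Ngfr forms a block with Th, Dbh, Slc6a2 and Stmn2 (0.90 to 0.96), and S100b has low values with most genes.

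The 10 genes most like Sox10 among 14830 with a mean of at least 1 normalized CPM were Adam11 (r = 0.945), Igsf1 (0.902), Angpt2 (0.900), Spata13 (0.885), Fam193a (0.884), Vwa1 (0.880), Erbb3 (0.874), Rps6kc1 (0.869), Adcy1 (0.867) and Kcna6 (0.865), over 12 libraries. The median r of all genes was 0.046. By rank correlation 6 of these 10 were again among the top 10, and 7 were when the group means were left in. Of these 10, 1 (Erbb3) was in the lists of Schwann cell genes, and it was the 1 member among the top 100. The other members were at ranks 146 (Cdh19), 353 (Mbp), 902 (Gfap), 2690 (Ngfr), 3395 (Pmp22) and 9999 (S100b). Foxd3, a transcription factor of the neural crest, ranked highest of the other listed Schwann cell genes, at 16 (r = 0.843).

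Between the sexes 0 of the 8 genes passed in the AVF group, in the sham group or in the interaction of operation and sex (edgeR, 22163 genes), where 0.0226%, 0.0451% and 0% of all genes passed. DESeq2 also gave 0 in each. At an unadjusted p value under 0.05 there was 1 gene in AVF (Cdh19), 1 in sham (Pmp22) and 2 in the interaction (Gfap and Cdh19), against 4.53%, 7.58% and 4.82% of all genes.

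The 2 genes of the interaction had larger female than male values in the AVF group and the reverse in the sham group. Cdh19 was at 90 ± 28 normalized CPM in female and 62.3 ± 11.7 in male AVF libraries, and at 108 ± 5.95 in female and 136 ± 27.9 in male sham libraries (SD, n = 3). Its log2 fold change of AVF over sham was -0.31 in females and -1.12 in males (adjusted p = 0.448 and 0.0451, edgeR), a difference of 0.82 (SE 0.30, edgeR adjusted p = 0.96). Gfap was at 3.94 ± 1.82 and 2.24 ± 0.718 in female and male AVF, and at 2.01 ± 0.209 and 3.97 ± 2.21 in female and male sham libraries (SD, n = 3), a difference of 1.74 (SE 0.63, edgeR adjusted p = 0.96). Sample #07, a female, is the highest AVF library of both genes. Within each sex Ngfr had log2 fold changes of AVF over sham of -1.15 in females and -1.32 in males (adjusted p = 0.195 and 0.248, edgeR), and Sox10 of -0.65 and -0.99. Pmp22 in the sham group was at 281 ± 20.1 in females and 406 ± 86.9 in males (SD, n = 3), a log2 fold change of -0.51 (edgeR adjusted p = 0.559).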

How the data were processed

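RNA of 12 IVC samples (6 AVF, 6 sham) had been sequenced by the authors from stranded poly(A) libraries in paired ends. The authors removed poly(A) runs with PRINSEQ, trimmed with Trimmomatic 0.39, aligned to GRCm39 with STAR 2.7.7a (Ensembl annotation) and counted with RSEM 1.3.3 with the strand set to reverse (versions per the submitters' processing notes). They deposited expected counts per gene, not normalized and not filtered. RSEM shares reads between similar genes, and per library 5.72% to 7.75% of values had a fractional part. Samples were grouped by their labels and named by the number in them. Gene names, coordinates and exon lengths came from GENCODE M39 on GRCm39. Of the identifiers 665 had no name. No gene shares exons with a member on its strand.

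Rounded counts were scaled by TMM (edgeR 4.0.16 with limma 3.58.1, in R 4.3.3). AVF was tested against sham by edgeR's quasi-likelihood test over 15912 genes that exceeded 1 CPM in 2 or more samples, with p values adjusted by the Benjamini-Hochberg procedure over all of them. A gene passed at an adjusted p value under 0.05. Contrasts of sex came from a fit of 4 groups over the 22163 genes with more than 12 counts. The limit of detection, 3 counts, corresponded to 0.127 to 0.323 normalized CPM and covers counting error only. Alternatives were the exact test of edgeR, DESeq2 1.42.0, other size factors, filters and designs, and libraries left out.

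The 8 genes, the lists of other genes and the tests were chosen with earlier results of these data known. Named genes were the 8 members, in each list those that passed (at most 4, by lowest p) and the 10 most like Sox10. Th was chosen for the comparison with neurons. Foxd3, Erbb2, Nrg1, Dbh, Slc6a2 and Stmn2 are named besides, chosen once their values had been seen. The labels give no subgroups of AVF samples, and none was used as a group, but samples #05 and #09, which the study set apart as outliers, were left out in an alternative. The microarray and ultrasound data were not used here.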

Additional observations from a re-analysis of the deposited data

Results flagged for a closer look

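Of 63 groups of 6 libraries searched for a value far from the other 5, 7 held one. The rule flags about 1 in 20 groups of normally distributed values. The values here were not logged and the genes share libraries, so that rate need not hold for them. Among the 8 genes this was Gfap, at 6.47 normalized CPM in sham sample #18 against 1.84 to 3.21 in the other sham libraries. Fabp7, of the immature Schwann cell genes, was at 5.01 in sham sample #19 against 21.4 to 24.2. Ret was at 64.6 in AVF sample #07 against 27.2 to 34.4 in the other AVF libraries. Adgre1 was at 46.3 in AVF sample #09 against 58.3 to 65. Alb and Ttr were at 5580 and 258 in AVF sample #09, and Apoa1 was at 0.52 in sham sample #16, against at most 1850, 95.2 and 0.104 in the other libraries of their groups.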

How the results depend on the processing

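Main counts were 2 of 8 Schwann cell genes, 7 of the other Schwann cell genes and 2 of 27 neuron genes. DESeq2 gave 4, 14 and 19 (21.4% of all genes called), and the exact test of edgeR 3, 14 and 18 (12.6%), where the quasi-likelihood test called 13.8%. Without samples #05 and #09 the counts were 0, 1 and 1 (7.92%), and without sample #07 they were 3, 12 and 18 (16%). With a fold of at least 2 asked for, 1 of the 8 passed. With single libraries left out they ranged from 0 to 3, from 3 to 12 and from 1 to 18, as the share of all genes called ran from 8.39% to 16%. Of the 8 genes 0 passed without sample #05 and 1 without #04, #06, #17, #18 or #23. Other Schwann cell genes numbered 4 without samples #05, #17 or #18 and 3 without #23, and neuron genes 17 without #19 and 1 without each library besides #07 and #19. Size factors, other filters, unrounded counts, a robust fit and sex as a covariate kept each count within 1.5 times. The counts by sex stayed at 0 throughout. With single libraries left out the count of relations with Th ranged from 0 to 5, an alternative chosen after the data were seen in which 5 libraries can hardly pass, and the log2 fold changes from -0.05 to 0.12 for Pmp22 and from -0.19 to 0.40 for Gfap. The sign of Gfap turned without sample #07 (-0.19), #11 (-0.07), #17 (-0.04), #19 (-0.04), #22 (-0.06) or #23 (-0.07), and that of Pmp22 without #06, #16, #19, #22 or #23 (-0.05 to -0.01). The causes were not tested.

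Samples of the same number and sex had deviations with correlations of -0.133 to 0.253 over 6 pairs, 3 of them over 0.1. Of the 6 AVF libraries 2 were closest to their own number. Whether this exceeds pairs of unlike number was not tested, and the numbers were not taken as pairs. With the replicate block 2 of the 8 genes passed, Mbp (adjusted p = 0.0311, edgeR) and Cdh19 (adjusted p = 0.0369, edgeR), with Ngfr at 0.0583. In that fit 8 of 48 other Schwann cell genes and 1 of 27 neuron genes passed, where 12.5% of all genes did.

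Depth limits Gfap most, with 26 to 153 counts in a library.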
